A study of Arabidopsis thaliana with 3 samples.

Results

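The chloroplast keeps a small genome of its own, and this is an account of the photosynthesis genes it carries: those of photosystems I and II, the cytochrome b6f complex, the NADH dehydrogenase-like (NDH) complex, the ATP synthase, the Rubisco large subunit rbcL and the photosystem I assembly factors ycf3 and ycf4. They were chosen as probe sets whose annotation names 1 plastid gene on a list of 46 symbols, and 45 of the 46 had one, out of 22746 Arabidopsis probe sets. The exception was ndhB, which lies in the inverted repeat of the plastid genome in 2 copies and whose probe set is listed under both. RNA came from whole 7-day-old Arabidopsis thaliana seedlings, grown on MS agar at 22 °C after 2 days in the cold, under unbroken light of 40 µmol of photons per square metre each second. The 3 genotypes were 35S:WRKY6-9, a line that overexpresses the transcription factor WRKY6 from the 35S promoter, which is active in most plant tissues, the knockout line wrky6-1, and wild type of the Columbia ecotype. They are called the overexpressor, the knockout and wild type below. The labels name the ecotype for wild type alone, the overexpressor is 1 transgenic line, and the number of seedlings behind each RNA sample is not given in the sources used here. Each genotype was hybridised to 1 array. No comparison below therefore has a replicate, a test or a p-value, and each difference is one between 2 single arrays.

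In a chloroplast most of these genes are transcribed by the bacterial-type plastid RNA polymerase, whose core subunits are also plastid-encoded and whose sigma factors come from the nucleus. Many are read as long transcripts spanning several genes, which are then cut, spliced, edited and trimmed by nuclear-encoded RNA-binding proteins, so the level of a mature transcript depends on processing and stability as well as on transcription. Each thylakoid complex mixes plastid-encoded subunits, often those that hold the pigments and redox centres, with nuclear-encoded ones. Plastid transcripts carry few and short poly(A) tails, and the labelling kit named in the labels is one that primes from such tails. How much of each plastid transcript was copied was not tested, and the values below are levels of what was labelled.

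The arrays had been scaled before deposit, with medians of 169, 173 and 182 for the overexpressor, the knockout and wild type. WRKY6 had a signal of 9245 in the overexpressor and 12.1 in the knockout, against 322 in wild type, in the direction the labels give. The signal of the 3' over that of the 5' control probe set reports on RNA integrity. With the newer control probe sets it was 1.89, 1.84 and 1.97 for actin, 0.893, 0.923 and 0.952 for GAPDH and 0.994, 1.12 and 1.17 for ubiquitin on the same arrays. Older probe sets of actin and ubiquitin lay further apart. For actin they had 6783, 7894 and 5354 at the 3' end and 517, 862 and 526 at the 5' end. For ubiquitin the older signals were 16258, 14293 and 16390 at the 3' end and 7772, 7637 and 6171 at the 5' end. The 25S ribosomal RNA control, also an RNA without a long poly(A) tail, had a signal of 152 in the overexpressor and 65.2 in the knockout, against 310 in wild type. The overexpressor array stood apart in its bacterial and phage spike-in controls (bioB, bioC, bioD and cre). Their 9 newer probe sets were all higher there than in wild type, by 1.17-fold to 1.39-fold with a median log2 ratio of 0.39. In the knockout 8 of the 9 were higher than in wild type, but the median log2 ratio was 0.07, with folds from 0.99 to 1.33. The 9 older probe sets of the same controls are listed at 0 in the overexpressor alone. The newer probe sets of the Bacillus controls (dap, lys, phe and thr) mostly went the other way. They were lower in the overexpressor than in wild type, as for the 3' dap probe set at 969 against 1225. The exceptions were the 5' probe sets of dap (595 against 552) and thr (268 against 229). Signals under a floor of 45.5, the 30th percentile of all arrays together, were raised to it before ratios were taken. A gene counted as measured in a comparison if its brighter array had a signal of at least 174.6, the 50th percentile. Where a gene had more than 1 probe set, the disagreement among them gave an SD of 0.25, 0.23 and 0.27 on the log2 scale for a single probe set's ratio in overexpressor over wild type, knockout over wild type and overexpressor over knockout. That SD, from 45, 47 and 46 genes, does not hold the spread between plants, RNA extractions or hybridisations.

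Of the 45 genes, 40 reached the measured signal on every array, with signals between 204 and 31732, so none of them counted through 1 genotype alone. The other 5 stayed under it on all arrays and enter no count below. Among them petN, a small subunit of the cytochrome b6f complex, had a signal of 136 in the overexpressor and 94.9 in the knockout, against 85.8 in wild type. The b6f subunit IV gene petD had 79.5 and 77.3 in the lines, against 69.1 in wild type. The photosystem II assembly gene psbN had 123 and 149, against 119. For petG, another small b6f subunit, the signals were 32.8 and 82.7, against 41.7, and only the knockout value lay above the floor. The NDH membrane subunit gene ndhF was under the floor on every array, at 14.7, 20.3 and 8.32 in the overexpressor, the knockout and wild type. Probe sets differ in how strongly they bind their target, so signals are compared between arrays for the same gene and not between genes.

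**Figure D1:**
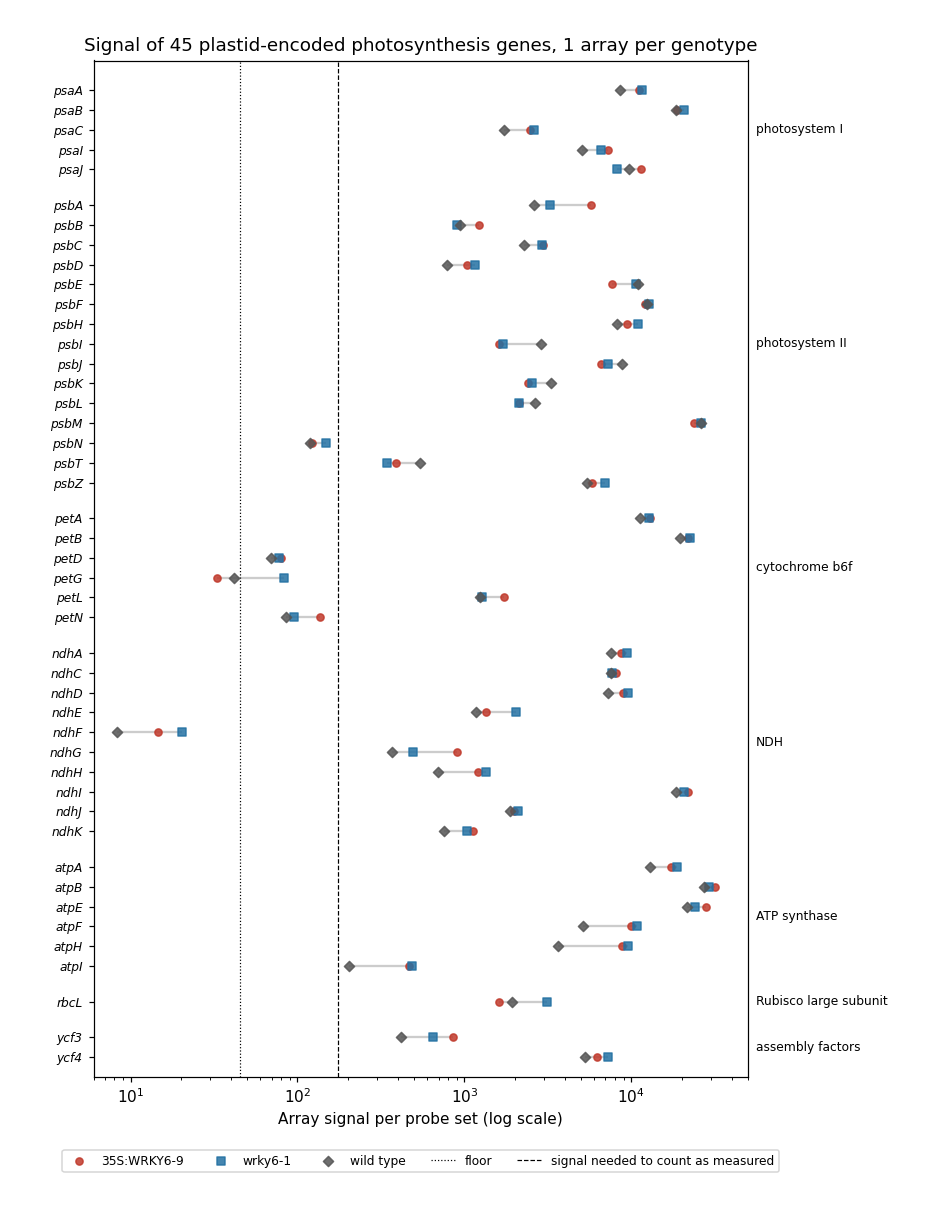
Signal of each of the 45 genes (rows, grouped by complex) on the 3 arrays, on a log axis with 1 point per array for 35S:WRKY6-9, wrky6-1 and wild type. The dotted line is the floor of 45.5 and the dashed line the signal of 174.6 needed to count as measured. For atpF, atpH and atpI the points of both lines lie close together and right of wild type, while for rbcL the 2 lines lie on either side of wild type.

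The 40 measured genes together had somewhat higher signals in both lines than on the wild-type array. Their median log2 ratio was 0.24 in overexpressor over wild type, where all measured probe sets had -0.02, and 0.31 in knockout over wild type, where all had -0.01. In the overexpressor 31 were above and 9 below wild type, where 48.1% of all measured probe sets were above, and in the knockout the counts were also 31 and 9, where 49.5% were above. Both lines were set against the same wild-type array, so its chance deviations enter both ratios. The newer actin and GAPDH control probe sets were also higher in both lines than in wild type. The newer 5' actin control had 6491 in the overexpressor and 7045 in the knockout, against 5346 in wild type. The older 5' actin control had 517 and 862, against 526. For the newer 5' GAPDH control the signals were 15385.5 and 15621, against 13209. Those of ubiquitin were 16355 and 17443, against 16416, for the newer 3' control and 16451 and 15532, against 14041, for the newer 5' control. The older 3' ubiquitin control was lower in both lines, at 16258 and 14293 against 16390. Whether the shift is particular to plastid genes was not tested. The 45 genes made up 2.06% of the summed signal of the array in the overexpressor and 2.08% in the knockout, against 1.85% in wild type. At 2-fold, 5 of the 40 were higher in the overexpressor (psbA, atpH, atpI, ycf3 and ndhG), where 3.79% of all measured probe sets were, and 3 were higher in the knockout (atpF, atpH and atpI), where 5.16% were. No measured gene was 2-fold lower in either line, where 5.61% and 7.77% of all measured probe sets were. At 1.5-fold, ndhH and atpF joined the 5 in the overexpressor to make 7 higher (10.2% of all measured probe sets), and psbI alone was lower (14.7%). In the knockout 7 were higher at 1.5-fold, adding ycf3, rbcL, ndhE and ndhH (14.5% of all), and psbI and psbT were lower (18.2%).

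In whole seedlings a different share of green tissue and a different amount of plastid RNA per cell cannot be told apart. Of 19 nuclear markers of green tissue 3 had a single-gene probe set in the annotation (LHCB4.1, LHCB4.2 and RCA), none under the floor. Their summed signal was 58378 in the overexpressor and 59026 in the knockout, against 58385 in wild type. That sum holds ratios of both signs, with log2 ratios of -0.40 and -0.47 in the overexpressor and the knockout for the antenna gene LHCB4.2, -0.04 and 0.05 for LHCB4.1 and 0.34 and 0.35 for RCA. Of 8 root markers 3 had one, none under the floor, with a summed signal of 18057 and 18511, against 14519. PYK10, a root beta-glucosidase gene that makes up most of that sum, had log2 ratios of 0.30 and 0.36. The root hair expansin genes EXPA18 and EXPA7 had 0.77 and 0.92 in the overexpressor and 0.13 and -0.18 in the knockout, where EXPA7 was not measured. The EXPA7 signal was 243 in the overexpressor and 113 in the knockout, against 128 in wild type. Only the overexpressor signal reached the level needed to count as measured, so EXPA7 counted through that array alone. EXPA18 had 305 and 195, against 179 in wild type, just above that level. The part of root share and of the lower 25S ribosomal RNA control was not tested. Nor was that of the higher bioB, bioC, bioD and cre signals of the overexpressor array, whose median ratio exceeds the 0.24 of the plastid genes.

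The size of the shift in the plastid genes depended on how the arrays were scaled, while the count of genes 2-fold higher stayed between 5 and 6 in the overexpressor and between 2 and 4 in the knockout. With lowess scaling, which removes a trend of the ratio with signal, the median was 0.07 in the overexpressor and 0.13 in the knockout. All measured probe sets had -0.02 in both, and 26 of 40 and 22 of 40 genes were above wild type. Quantile normalisation gave 0.16 and 0.18, with 28 and 27 above, where all measured probe sets had 0.02 and 0.03. Scaling to the median signal gave 0.34 and 0.38, with 32 and 34 above, where the median of all measured probe sets moved to 0.09 and 0.08. Under all 4 scalings 26 genes kept a ratio above 0 in the overexpressor, 8 kept one below 0 and 6 did not keep a side. In the knockout the counts were 22, 6 and 12. The share of all measured probe sets above 0 was computed only for the arrays as deposited. The counts under other scalings and across scalings therefore have no such background beside them.

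**Figure D2:**
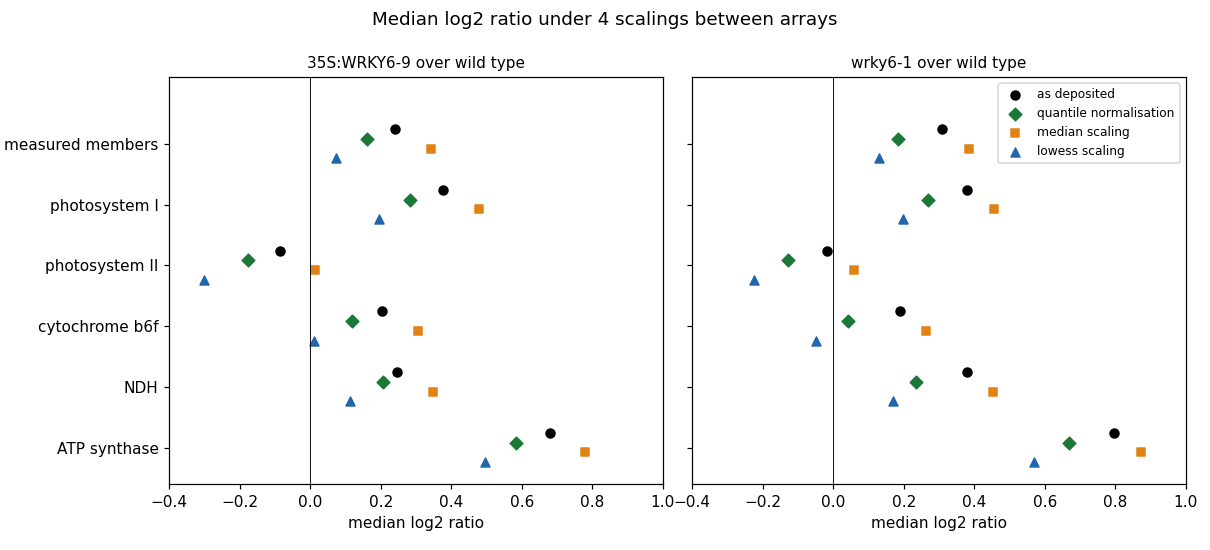
Median log2 ratio of the measured genes and of 5 complexes (rows) in 35S:WRKY6-9 over wild type and wrky6-1 over wild type under 4 scalings between arrays, 1 symbol per scaling. The ATP synthase median stays above those of the other 4 complexes under each scaling, from 0.49 to 0.78 in 35S:WRKY6-9 and from 0.57 to 0.87 in wrky6-1, while photosystem II and, in wrky6-1, cytochrome b6f lie on both sides of 0.

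The ATP synthase, which makes ATP from the proton gradient across the thylakoid membrane, had the highest median of the 5 multi-gene complexes in both lines. Its 6 plastid genes, all measured, were above wild type on both lines' arrays, with medians of 0.68 in the overexpressor and 0.80 in the knockout. The largest ratios came from 1 group of neighbouring genes. The gene for the membrane ring subunit, atpH, had a signal of 8852 in the overexpressor and 9496 in the knockout, against 3656 in wild type, which is 2.42-fold and 2.60-fold higher. The gene for the proton-channel subunit, atpI, had 467 and 488 in the lines, against 204 in wild type, 2.30-fold and 2.40-fold higher. The stalk subunit gene atpF had 9925 and 10760 in the lines, against 5146, 1.93-fold and 2.09-fold higher. In all 3 genes the lines stood near each other and about 2-fold or more above wild type.

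The gene atpA, for the alpha subunit of the catalytic head, lies next to atpF and had a smaller ratio, with 17175 in the overexpressor and 18670.5 in the knockout against 12920 in wild type (1.33-fold and 1.45-fold). Upstream of atpI lies the ribosomal protein gene rps2, with log2 ratios of 0.35 in the overexpressor and 0.33 in the knockout. Along the order rps2, atpI, atpH, atpF, atpA the ratio was thus smaller at both ends. Beyond rps2 follow the plastid RNA polymerase genes rpoC2, rpoC1 and rpoB, with higher ratios than rps2. They were at 0.54, 0.38 and 0.86 in the overexpressor and at 0.59, 0.72 and 0.93 in the knockout, with rpoB under the filter in wild type. The shape therefore depends on where the stretch is cut. The remaining head genes, atpB for the catalytic beta subunit and atpE for the epsilon subunit, are read from a separate transcript. Their log2 ratios were 0.21 and 0.37 in the overexpressor and 0.10 and 0.16 in the knockout. Only that of atpE in the overexpressor exceeded the SD of a single probe set, 0.25 in the overexpressor and 0.23 in the knockout. In the knockout both were at or below 0 under quantile or lowess scaling, and in the overexpressor atpB did not keep its side. Without atpI, atpH, atpF and atpA, the ATP synthase median was 0.29 in the overexpressor and 0.13 in the knockout. The count of measured genes 2-fold higher was then 3 in the overexpressor and 0 in the knockout, where 3.79% and 5.16% of all measured probe sets were. Leaving these genes out was an alternative chosen after seeing the data.

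Photosystem I, which reduces ferredoxin, was above wild type for most genes, with no gene at 2-fold. The median of its 5 genes was 0.38 in the overexpressor and 0.38 in the knockout, with 5 and 4 of them above wild type, and 4 and 3 with lowess scaling. The gene psaC, for the subunit that holds the terminal iron-sulphur clusters, had 2466 in the overexpressor and 2603 in the knockout, against 1738 in wild type, with log2 ratios of 0.50 and 0.58. For the reaction centre gene psaA the signals were 11076 and 11640.5 in the lines, against 8526, with ratios of 0.38 and 0.45. Its reaction centre partner psaB, read from the same transcript, had ratios of 0.03 and 0.18 and did not keep its side under every scaling. The small subunit gene psaI was at 0.52 and 0.38. The lines stood apart for psaJ, another small subunit gene, with 11463 in the overexpressor and 8242 in the knockout, against 9746 in wild type (log2 ratios of 0.23 and -0.24).

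The assembly factors ycf3 and ycf4 help build photosystem I. For ycf3 the signal was 849 in the overexpressor, 2.02-fold higher than wild type, and 650 in the knockout, 1.55-fold higher, against 419 in wild type. The ycf4 signals were 6262 and 7261, against 5281, with log2 ratios of 0.25 and 0.46. Both genes were above wild type in both lines under each of the 4 scalings.

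Photosystem II, which splits water, divided into genes above and genes below wild type. Of its 14 measured genes 6 were above and 8 below in each line, with medians of -0.09 in the overexpressor and -0.02 in the knockout that turned to 0.014 and 0.057 with scaling to the median signal. The reaction centre gene psbA encodes D1, the subunit that is damaged by light and replaced continually. It had a signal of 5756 in the overexpressor and 3256 in the knockout, against 2630 in wild type, which is 2.19-fold and 1.24-fold higher. The overexpressor array stood apart here, 1.77-fold above the knockout. For psbD, which encodes the partner D2, the signals were 1030 and 1158, against 789 (log2 ratios of 0.38 and 0.55). The inner antenna gene psbC, read with psbD, was at 0.39 and 0.36, and psbZ, the small subunit gene that follows, at 0.09 and 0.34.

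Most of the genes below wild type encode small subunits of photosystem II, and most lie in 2 short groups of neighbours. In the first, psbI had a signal of 1622 in the overexpressor and 1711 in the knockout, against 2866 in wild type, 1.77-fold and 1.67-fold lower. Its neighbour psbK had 2415 and 2534 in the lines, against 3314, 1.37-fold and 1.31-fold lower. Both lines again stood close together, here below wild type, while atpA, the next gene with a probe set in plastid gene order, stood above it. In the second group psbJ was at -0.40 and -0.28 and psbL at -0.32 and -0.31 in the overexpressor and the knockout. The cytochrome b559 genes psbE and psbF belong to the same group. For psbF the signals were 12150 in the overexpressor and 12762 in the knockout, against 12397 in wild type, with log2 ratios of -0.03 and 0.04. For psbE the signal was 7663 in the overexpressor and 10712 in the knockout, against 10896 in wild type, so the overexpressor was lower (log2 ratio -0.51) while the knockout was at -0.02.

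A further group reads psbB, psbT, psbH, petB and petD together and held ratios of both signs. The inner antenna gene psbB was at 0.37 in the overexpressor and -0.07 in the knockout. The small subunit gene psbT, which follows it, had 390 and 345, against 540 in wild type (-0.47 and -0.65). The gene psbH, for a phosphorylated small subunit, was at 0.19 and 0.42. The small subunit gene psbM was at -0.15 and -0.01.

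The cytochrome b6f complex carries electrons between the photosystems and had 3 measured genes of 6. The signals of petA, for cytochrome f, were 12930 in the overexpressor and 12804 in the knockout, against 11233 in wild type (log2 ratios of 0.20 and 0.19), and petB, for cytochrome b6, was at 0.16 and 0.20. For petL, a small subunit gene, the overexpressor had 1727 and the knockout 1272, against 1238, with ratios of 0.48 and 0.04. The medians were 0.20 in the overexpressor and 0.19 in the knockout, and with lowess scaling 0.0091 and -0.048, so no direction is given for the complex in the knockout.

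The NDH complex returns electrons from ferredoxin to the plastoquinone pool and had 9 measured genes. All 9 were above wild type in each line as deposited, with medians of 0.25 in the overexpressor and 0.38 in the knockout, and 8 and 7 of the 9 were with lowess scaling. The membrane arm gene ndhG had a signal of 904 in the overexpressor and 492 in the knockout, against 368 in wild type, 2.46-fold and 1.34-fold higher. The gene ndhH, for a subunit of the stromal arm, had 1206 and 1355, against 694, 1.74-fold and 1.95-fold higher. For the membrane arm gene ndhE the lines differed in the other direction from ndhG, with 1356 in the overexpressor and 2040 in the knockout, against 1179 (log2 ratios of 0.20 and 0.79). The stromal arm gene ndhK was at 0.57 and 0.45, its neighbours ndhJ and ndhC at 0.09 in the overexpressor and at 0.16 and 0.02 in the knockout. The remaining genes, ndhA and ndhD of the membrane arm and ndhI, which holds iron-sulphur clusters, were between 0.19 and 0.28 in the overexpressor and between 0.16 and 0.38 in the knockout.

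Rubisco fixes carbon dioxide with a large subunit from the plastid gene rbcL and a small subunit from nuclear genes. The rbcL signal was 1610 in the overexpressor and 3110 in the knockout, against 1916 in wild type, so that the overexpressor lay 1.19-fold below wild type and the knockout 1.62-fold above it. Compared directly, the overexpressor was 1.93-fold lower than the knockout (log2 ratio -0.95), between -0.95 and -0.92 under all alternatives tried. The next plastid gene with a probe set, accD for a subunit of acetyl-CoA carboxylase, was at 0.04 in the overexpressor and 0.40 in the knockout.

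**Figure D3:**
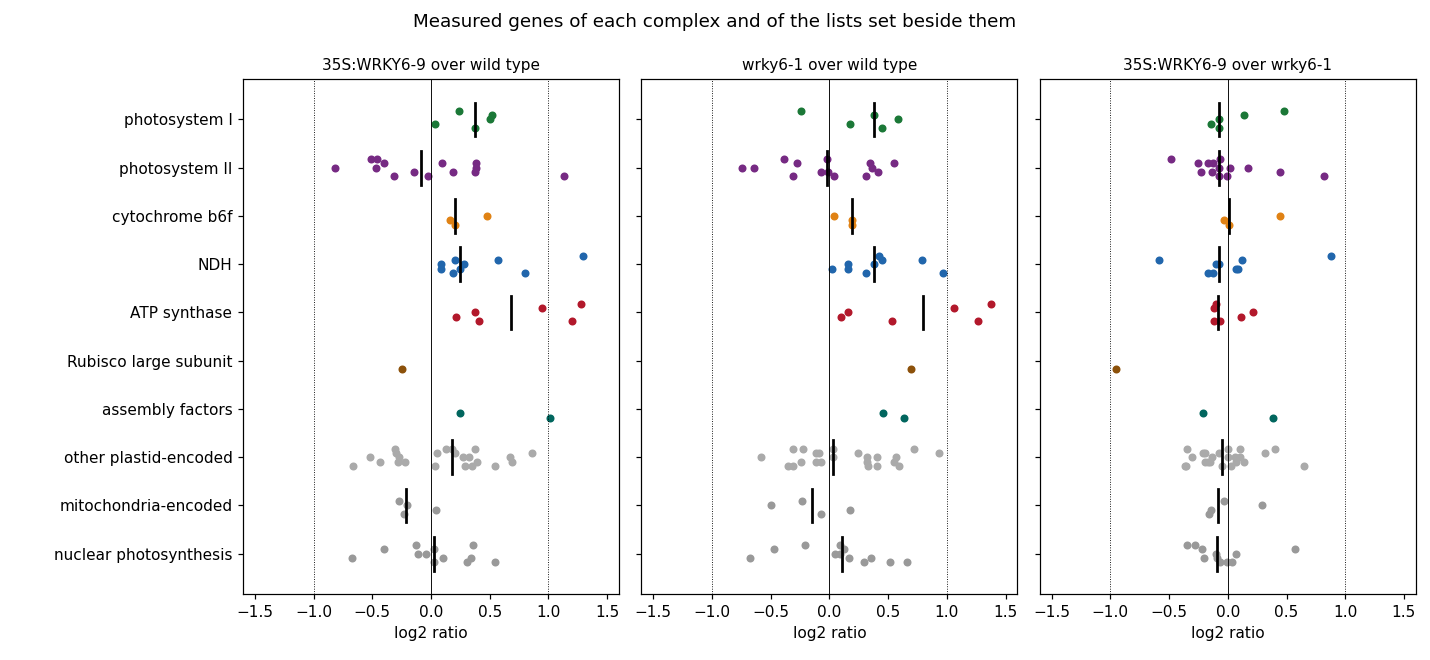
Log2 ratio of each measured gene (points) by complex, with the medians of groups of 3 or more genes as black bars, for 35S:WRKY6-9 over wild type, wrky6-1 over wild type and 35S:WRKY6-9 over wrky6-1. The lower 3 rows are other plastid-encoded, mitochondria-encoded and nuclear photosynthesis genes. Photosystem II spans both sides of 0 in the first 2 panels, with psbI lowest at -0.82 and -0.74, and no gene of a complex reaches 2-fold in the third.

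Compared directly, the lines differed by under 2-fold in each measured gene. The median log2 ratio in overexpressor over knockout was -0.07, where all measured probe sets had -0.01, with 15 genes above 0 and 25 below, where 49.1% of all were above 0. At 2-fold, 0 of the 40 genes were higher or lower in the overexpressor, where 4.53% of all measured probe sets were higher and 4.65% lower. At 1.5-fold, ndhG (0.88) and psbA (0.82) were higher in the overexpressor and rbcL (-0.95) and ndhE (-0.59) were lower, where 11.9% and 12.7% of all measured probe sets were. The group of petL and psaJ was also higher in the overexpressor, at 0.44 and 0.48. The ribosomal protein genes rpl33 and rps18, which follow psaJ and were picked after their values were seen, were at 0.65 and 0.32. The 4 genes from atpI to atpA, which had the largest median over wild type of any group, had log2 ratios between -0.12 and -0.06 in this comparison.

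On these arrays neighbouring genes that are read together had closer ratios, in the median, than other pairs. For pairs within the 12 groups of neighbours taken from textbook knowledge of plastid transcripts, the median difference in log2 ratio was 0.30 in overexpressor over wild type (52 pairs), against 0.50 for pairs from different groups (728 pairs). In knockout over wild type it was 0.27 against 0.42, and in overexpressor over knockout 0.19 against 0.24. Pairs from the same complex but different groups had median differences of 0.49, 0.41 and 0.24 in the same comparisons, close to the 0.50, 0.43 and 0.24 of pairs that shared neither. The pairs share genes and arrays, so these medians describe these arrays and carry no test. Of the 52 pairs 21 came from 1 group, and without its genes, an alternative chosen after seeing the data, the medians were 0.29 against 0.53, 0.27 against 0.43 and 0.13 against 0.24. That group, with genes from 2 complexes (ndhH, ndhA, ndhI, ndhG, ndhE, psaC and ndhD), had all 7 above wild type in both lines, with medians of 0.28 in the overexpressor and 0.42 in the knockout. Its ratios were spread widely, from a log2 ratio of 0.19 for ndhA to the 2.46-fold of ndhG in the overexpressor and from 0.16 to 0.97 on the log2 scale in the knockout. In overexpressor over knockout its neighbours ndhG and ndhE lay far apart, at 0.88 and -0.59. The group of psaI, ycf4, petA and cemA, an envelope protein gene that is not a photosynthesis gene, also joins different complexes, and its 4 ratios lay between 0.20 and 0.52 in the overexpressor and between 0.19 and 0.46 in the knockout.

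**Figure D4:**
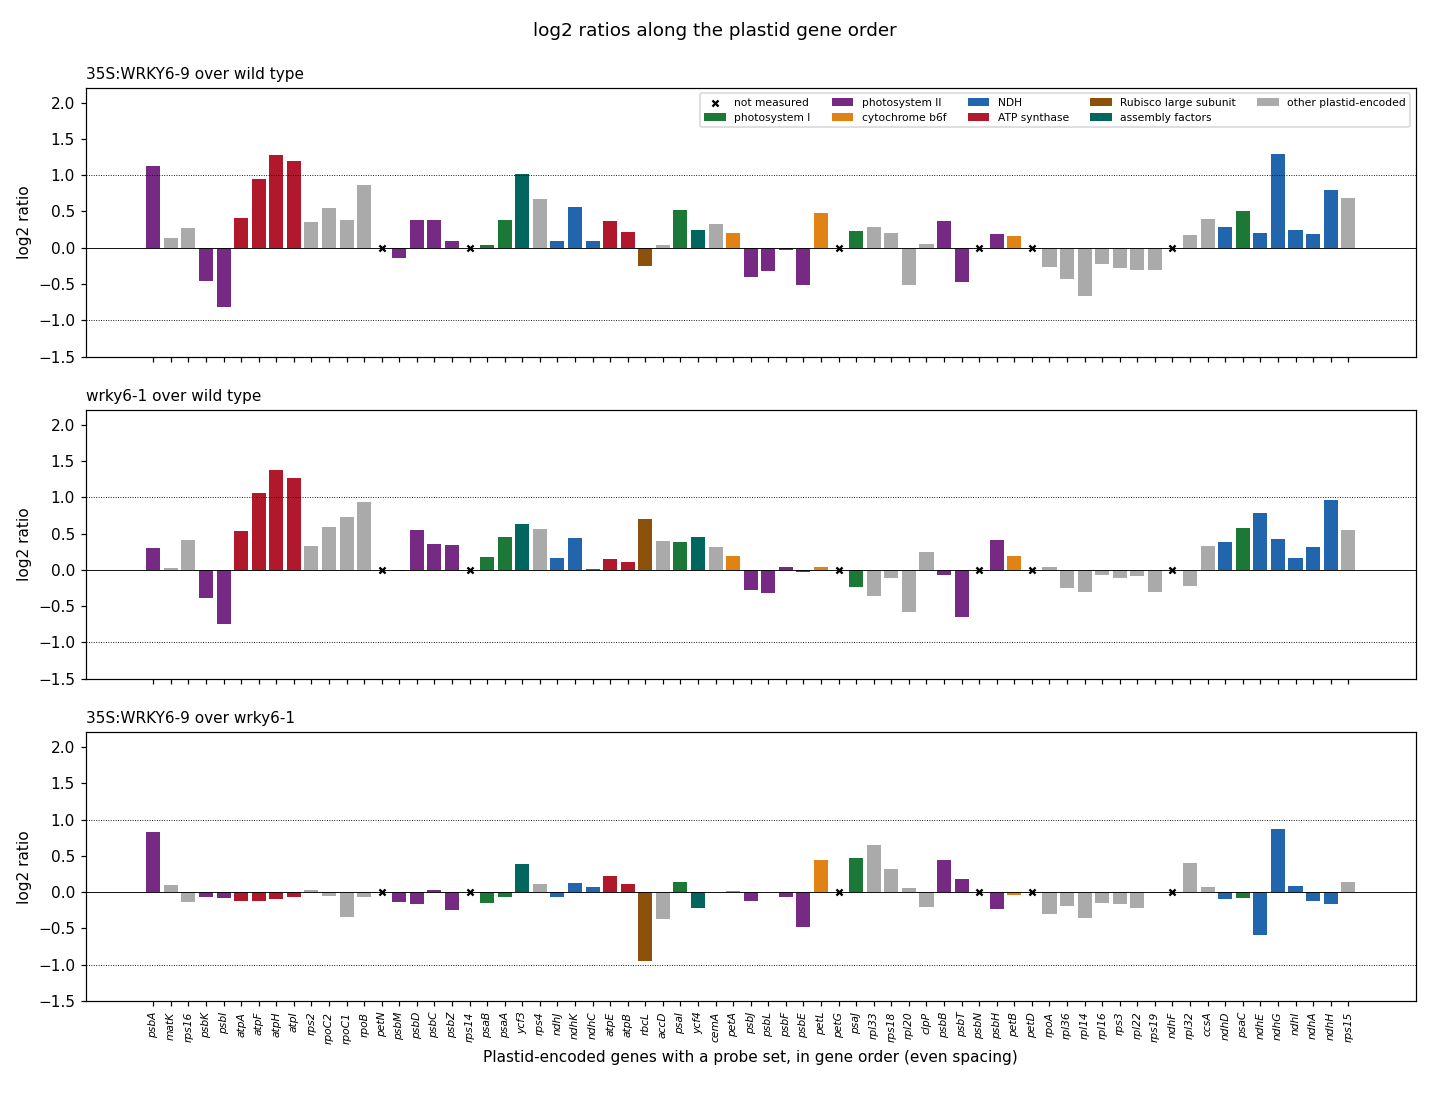
Log2 ratio of every plastid-encoded gene with a single-gene probe set, in plastid gene order with even spacing, for 35S:WRKY6-9 over wild type, wrky6-1 over wild type and 35S:WRKY6-9 over wrky6-1, coloured by complex, with other plastid-encoded genes in grey, crosses for genes not measured and dotted lines at 2-fold. Bars of 1 sign run in stretches, from atpA to rpoB above 0 and from rpl36 to rps19 below 0 in the upper 2 panels.

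Plastid-encoded genes of other functions had 23 measured of 24. Their median log2 ratio was 0.18 for the overexpressor and 0.03 for the knockout, none at 2-fold, and they ran from -0.67 and -0.58 to 0.86 and 0.93. The gene with the highest ratio in both lines was rpoB, a core subunit of the plastid RNA polymerase, at 263 in the overexpressor and 277 in the knockout against 145 in wild type. Its signal in wild type lay under the filter, so it counted through the lines. The 2 brightest, clpP, a protease subunit, and ccsA, a cytochrome assembly protein, were at 0.05 and 0.39 in the overexpressor and at 0.25 and 0.32 in the knockout. Mitochondria-encoded genes had 4 measured of 16, with medians of -0.21 and -0.15. The brightest of these were ccb382, of cytochrome c maturation, at -0.23 and -0.07, and nad4, of respiratory complex I, at -0.27 and -0.24.

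Nuclear genes of the same complexes and of light harvesting had 12 of 54 with a single-gene probe set, with medians of 0.02 in the overexpressor and 0.11 in the knockout and none at 2-fold. Its members at the brightest probe sets were RCA, for Rubisco activase, at 0.34 and 0.35, and PETM, a small b6f subunit gene, at 0.10 and 0.17. The nuclear gene ATPC1, for the gamma subunit of the same ATP synthase, had a signal of 16242 in the overexpressor and 15882 in the knockout, against 11127 in wild type (0.55 and 0.51). Its paralogue ATPC2 was at -0.67 in both lines, measured only through wild type. ATPC1 and ATPC2 were picked after their values were seen, as the highest and lowest of the list in the overexpressor. Nuclear genes of plastid transcription and RNA processing had 3 of 32 with a single-gene probe set in the annotation. Among them LPA66, an RNA editing factor for psbF, had 147 in the overexpressor and 319 in the knockout, against 267 in wild type, where psbF was at -0.03 and 0.04. CRR21, an editing factor for ndhD, had 199 and 298, against 178, where ndhD was at 0.28 and 0.38.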

How the data were processed

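Biotin-labelled cRNA from 3 seedling samples was hybridised to Affymetrix arrays, 1 per genotype, with groups taken from the genotype labels (35S:WRKY6-9, called the overexpressor, wrky6-1, called the knockout, and wild type). The deposited values are linear intensity values, 1 per probe set and array, and GCOS 1.0 and MAS5 are named in the submitters' processing notes. The 2% trimmed means were 499.8 for 35S:WRKY6-9, 500.1 for wrky6-1 and 500.0 for wild type, so the arrays were used as scaled. No genome build is given in the sources used here, and the TAIR10.1 gene table served only for names and gene order. The 64 control probe sets were left out of the gene counts. Of the other 22746, 13513 named 1 gene, 503 several and 8730 were not listed in the annotation. A floor, a filter and log2 ratios were computed with pandas 2.3.3 and numpy 2.4.6, and lowess, over a fraction of 0.3, with statsmodels 0.14.6. The ratio, floor and count steps returned the folds that had been put into a copy of the wild-type array without added noise. Lowess, the other scalings and the pair differences were not part of that check. Having 1 array per genotype limits the precision throughout. The text names every member with a probe set, WRKY6, and from each other list the 2 brightest and any at 2-fold. Outside that rule, rps2, accD, cemA, rpoB, rpoC1, rpoC2, rpl33, rps18, ATPC1, ATPC2, EXPA7 and the LHCB4 genes were chosen after their values were seen. The members and lists were chosen with earlier results of these data known. Single-gene mitochondrial probe sets were matched by symbol. No sequences are printed.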

Additional observations from a re-analysis of the deposited data

How the results depend on the processing

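No paired analysis was possible because each genotype has 1 array. Alternatives were other scalings, floors, filters and thresholds and, chosen after seeing the data, 1 value per transcription unit, leaving out atpI, atpH, atpF and atpA, and leaving out the ndhH group from the pairs of neighbours. Averaging a gene's probe sets changed nothing, since each member has 1. Nor could the other floors or the filter on the mean change a result. The 40 measured genes lay above 174.6 on every array and the other 5 under it. Of 213 recomputed medians and counts, 9 moved, by more than the spread (SD) among probe sets of a gene or, for counts, by more than 1.5 times, 4 medians changed sign, and 200 did neither. Those 200 include the values under the other floors and the filter on the mean, which were fixed in advance. The median of the measured genes lay between 0.07 and 0.34 in overexpressor over wild type, between 0.13 and 0.38 in knockout over wild type and between -0.07 and -0.04 in overexpressor over knockout. With scaling to the median signal the photosystem II medians changed sign, to 0.014 in the overexpressor and 0.057 in the knockout, and with lowess scaling that of cytochrome b6f in the knockout did, to -0.048. At 1.5-fold, 7 genes were higher and 1 lower in the overexpressor than in wild type, 7 higher and 2 lower in the knockout, and 2 higher and 2 lower in the overexpressor than in the knockout. Without atpI, atpH, atpF and atpA, 3 genes were 2-fold higher in the overexpressor and 0 in the knockout, where 3.79% and 5.16% of all measured probe sets were. The ATP synthase medians were then 0.29 in the overexpressor, 0.13 in the knockout and 0.16 between the lines, from the 2 genes left. The last of these changed sign, from -0.083 with all 6 genes. Why the scalings differ was not tested. Low signal over background limits petN, petD, petG, psbN and ndhF.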
